A study of Mus musculus with 8 samples.

Results

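The keratin filament and surface epithelium genes described here are Krt15, Krt5, Krt14, Krt12, Krt8, Krt18, Lad1, Cdh1, Epcam and Fxyd3, and they were measured in the retinal pigment epithelium (RPE) of mice with and without Bbs8. They are 10 of the 31053 genes listed in the count files, and they were found by matching Ensembl identifiers to gene symbols. The set was selected on levels in these same libraries, with the difference between the genotypes known, so the values of these 10 genes are given as a description and without a test. By role the set holds 4 keratins of stratified epithelia (Krt5, Krt14, Krt15 and Krt12), 2 keratins of simple epithelia (Krt8 and Krt18) and 4 genes of adhesion and the cell surface (Lad1, Cdh1, Epcam and Fxyd3).

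Transcripts of isolated RPE cells were sequenced in 4 Bbs8+/+ and 4 Bbs8-/- libraries from mice at P29, all of the strain C57/Bl6, with sex not determined and no treatment. The wild-type animals were littermate controls, and each animal was treated as a biological replicate. Bbs8, listed as Ttc8, encodes a subunit of the BBSome, a protein complex of the primary cilium. The knockout was not restricted to the RPE, so the photoreceptors next to it lacked Bbs8 as well. Libraries were made from 30 ng of RNA with a kit that reads transcript ends (QuantSeq 3′), so each value counts reads near the polyadenylated end of a gene.

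Keratins form the intermediate filaments of epithelial cells as obligate pairs of one type I and one type II chain. Simple, single-layered epithelia such as the RPE typically pair Krt18 with Krt8, whereas the basal layer of stratified epithelia such as epidermis and cornea pairs Krt14 or Krt15 with Krt5, and the differentiated corneal epithelium makes Krt12. Filaments are anchored to neighbouring cells by desmosomes and to the basement membrane by hemidesmosomes. Lad1 encodes ladinin 1, a protein associated with the basement membrane zone, Cdh1 encodes E-cadherin, Epcam encodes an adhesion molecule of many epithelia, and Fxyd3 encodes a small membrane protein that regulates the sodium pump.

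Between 2495094 and 3093428 reads fell on genes in a Bbs8+/+ library and between 2389835 and 2736289 in a Bbs8-/- library. Values are given as raw counts or as CPM (counts relative to library size, scaled with TMM), and every mean ± SD has n = 4 libraries. A library's 3 counts, taken as the floor of detection, corresponded to 1.02 to 1.23 CPM, a limit set by counting error alone. A gene entered the test if 4 or more of the 8 libraries reached 1 CPM, and the comparison used the quasi-likelihood F test of edgeR, with a threshold of 0.05 on the Benjamini-Hochberg adjusted p. Of 12889 genes tested, 5.46% passed it with a higher level in Bbs8-/- RPE and 6.8% with a lower level, and the median log2 fold change over all of them was 0.02. Ttc8 itself had 105, 142, 144 and 116 counts in Bbs8+/+ RPE and 15, 5, 14 and 15 counts in Bbs8-/- RPE, so no library went against its label. Bbs8+/+ replicate 1 differed more from the other Bbs8+/+ libraries, with a chi-square per degree of freedom of 5.51 to 6.68, than those did from each other, with 2.74 to 3.21. The Bbs8-/- libraries differed from each other by 4.02 to 4.81. Bbs8+/+ replicate 1 was also the deepest library, at 3093428 reads on genes.

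Of the 10 genes, 8 passed the filter on low counts and Krt12 and Epcam did not. Of the 8, 6 (Krt5, Krt14, Krt15, Krt8, Lad1 and Fxyd3) were past the threshold and higher in Bbs8-/- RPE, 0 were past it and lower, and Krt18 and Cdh1 were not past it. For the same 6 genes every Bbs8-/- library was above every Bbs8+/+ library, which held for 7.42% of all tested genes, and the opposite, which held for 8.62%, was seen for 0. Because the genes were chosen with this contrast known, nothing is read from these counts. A gene such as Krt5 passed the filter through the Bbs8-/- libraries alone. As in any bulk tissue, a different number of cells of a type and a different amount of RNA per cell cannot be told apart.

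**Figure D1:**
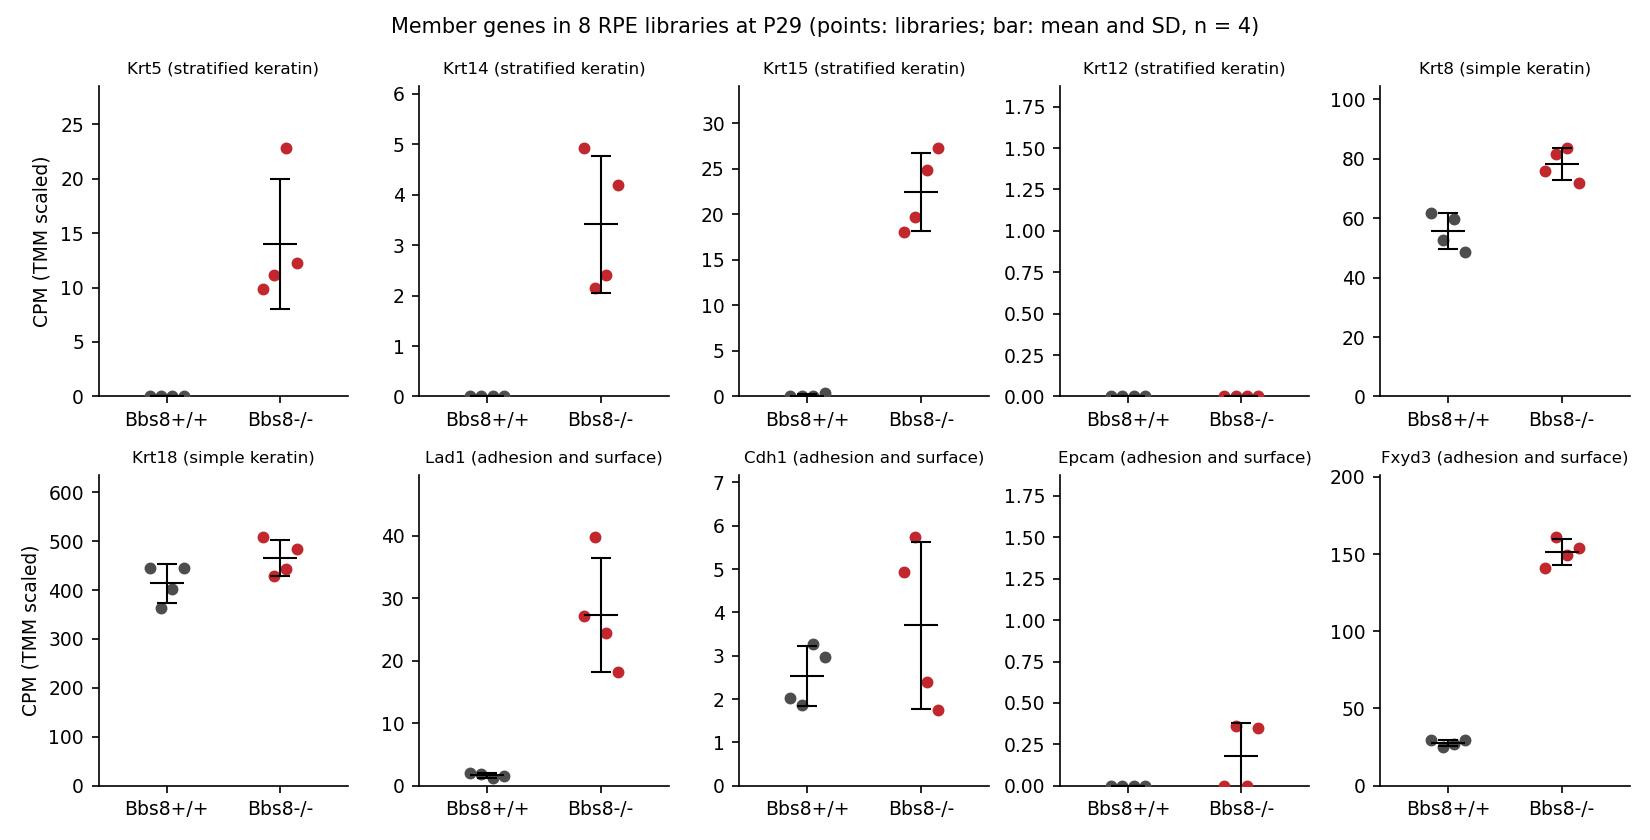
Level of each of the 10 genes in CPM (y axis, linear, from 0, with its own scale in each panel) in the 4 Bbs8+/+ (grey) and 4 Bbs8-/- (red) libraries. Points are libraries and bars are mean and SD. Krt5, Krt14 and Krt15 lie at or near 0 in Bbs8+/+ RPE, Krt8, Lad1 and Fxyd3 are present in both genotypes without overlap, Krt18 and Cdh1 overlap, and Krt12 and Epcam hold at most 1 count in a library.

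Among the stratified keratins, Krt5, Krt14 and Krt15 were at or near 0 counts in Bbs8+/+ RPE and present in every Bbs8-/- library, whereas Krt12 was not detected. Krt5 (ENSMUSG00000061527, GRCm38 chr15:101707070-101712898, minus strand), the type II chain of basal cells, had 0 counts in each of the 4 Bbs8+/+ libraries and 24, 31, 57 and 35 counts in Bbs8-/- RPE. All Bbs8-/- libraries were above all Bbs8+/+ libraries, and replicate 3 was the highest at 22.8 CPM. The Bbs8-/- libraries stood at 9.85, 11.1, 22.8 and 12.2 CPM, with a mean of 14 ± 5.95 CPM, which is at least 12.5-fold higher when 3 counts per library stand in for the Bbs8+/+ level.

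Krt15 (ENSMUSG00000054146, chr11:100131758-100135928, minus strand), a type I chain of basal cells, had 0, 0, 0 and 1 counts in Bbs8+/+ RPE and 44, 55, 62 and 78 counts in Bbs8-/- RPE. The lowest Bbs8-/- library thus held 44 counts where the highest Bbs8+/+ library held 1. The Bbs8-/- mean was 22.5 ± 4.30 CPM. The ratio of the summed and depth-scaled counts was 243, with a 95% exact counting interval of 43.2 to 9644, which is wide because it rests on the 1 count.

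Krt14 (ENSMUSG00000045545, chr11:100203162-100207548, minus strand), the usual type I partner of Krt5, had 0 counts in each Bbs8+/+ library and 12, 6, 6 and 12 counts in Bbs8-/- RPE. Every Bbs8-/- library was above the floor, although by a smaller margin than for Krt5. The Bbs8-/- mean was 3.42 ± 1.36 CPM, at least 3.05-fold higher against the same 3 counts per library. Krt14 closely resembles other type I keratins in sequence, and reads that map to more than one place were not counted. How many reads of each keratin were lost this way was not measured.

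Krt12 (ENSMUSG00000020912, chr11:99415666-99422259, minus strand), the type I keratin of the corneal epithelium, had 0 counts in all 8 libraries. This count of 0 allows a level of up to 0.140 CPM over the libraries together. Krt12 was thus not detectable at this depth in either genotype. An annotated antisense gene overlaps it, A830036E02Rik, which had 4, 2, 0 and 7 counts in Bbs8+/+ RPE and 0 counts in each Bbs8-/- library.

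Summed over the stratified members, the Bbs8+/+ libraries held 0, 0, 0 and 1 counts and the Bbs8-/- libraries 80, 92, 125 and 125 counts, or 39.9 ± 8.45 CPM. Within these counts of the Bbs8-/- libraries, Krt15 made up 56.7% ± 5.64, Krt5 34.3% ± 7.88 and Krt14 8.98% ± 4.48. Krt15 held the largest part in each of the 4 libraries, between 49.6% and 62.4%. These are shares of uniquely mapped transcript-end reads, in which reads per gene do not scale with transcript length.

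The simple keratins were present in every library of both genotypes. Krt8 (ENSMUSG00000049382, chr15:101996698-102004482, minus strand), the type II chain, had 182, 141, 146 and 131 counts in Bbs8+/+ RPE and 185, 228, 209 and 206 counts in Bbs8-/- RPE. After scaling, all Bbs8-/- libraries were above all Bbs8+/+ libraries, at 78.3 ± 5.33 against 55.6 ± 6.05 CPM. The log2 fold change was 0.49 (SE 0.148), a 1.41-fold difference in the means. In the 8 fits without 1 library it lay between 0.43 and 0.55.

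Krt18 (ENSMUSG00000023043, chr15:102028180-102032027, plus strand), the type I partner of Krt8, had 1314, 973, 984 and 1196 counts in Bbs8+/+ RPE and 1237, 1194, 1106 and 1386 counts in Bbs8-/- RPE. The genotypes overlapped, at 414 ± 39.3 and 466 ± 37.0 CPM. The log2 fold change was 0.17 (SE 0.0865). Krt8 and Krt18 lie side by side, with 23697 bases between their ends.

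The ratio of Krt18 to Krt8 counts was 7.50 ± 1.11 in Bbs8+/+ RPE and 5.99 ± 0.834 in Bbs8-/- RPE. The highest Bbs8-/- library, at 6.73, was just below the lowest Bbs8+/+ library, at 6.74. Summed, Krt8 and Krt18 stood at 469 ± 40.4 CPM in Bbs8+/+ and 544 ± 32.9 CPM in Bbs8-/- RPE. Their share of the counts on the 49 keratin genes named Krt and a number was 90.7% ± 1.80 in Bbs8+/+ libraries, from 89.0% to 92.3%, and 83.0% ± 1.06 in Bbs8-/- libraries, from 81.6% to 84.2%. With the keratins whose symbol ends in a letter added, the share was 81.8% ± 1.07 in Bbs8-/- libraries. The stratified members took 6.84% ± 1.47 of the counts on the 6 member keratins in Bbs8-/- libraries and at most 0.0753% in a Bbs8+/+ library.

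**Figure D2:**
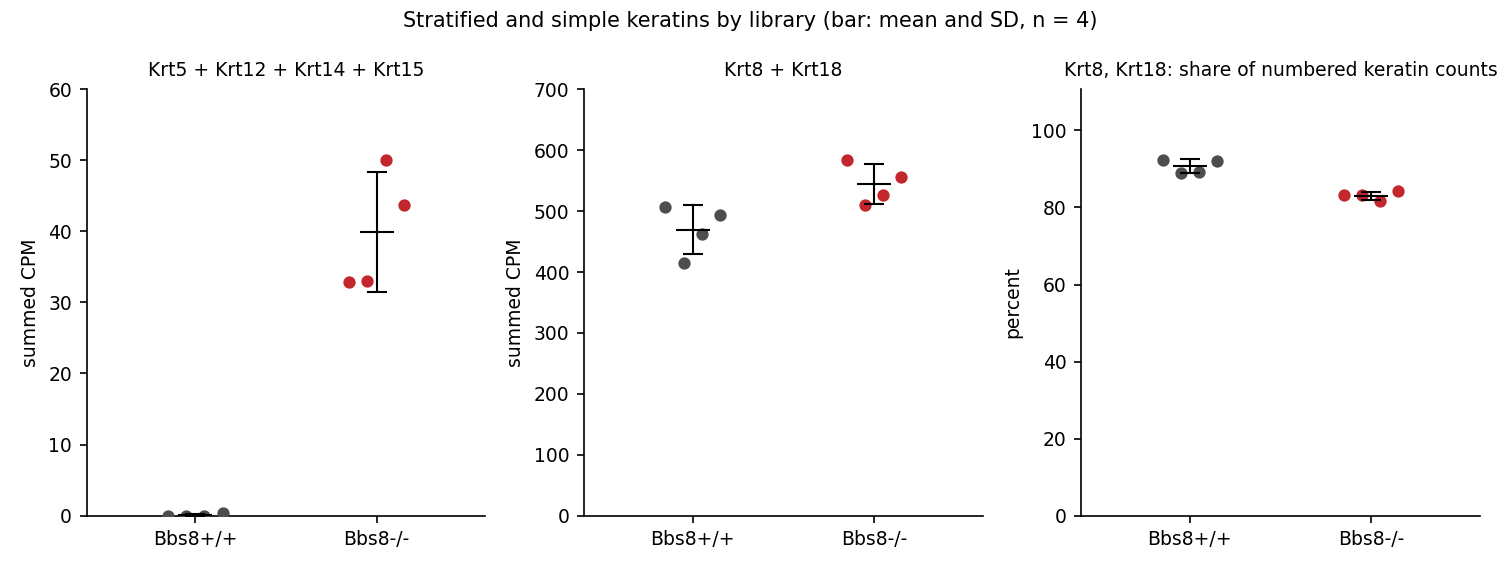
Summed level of the stratified members (left, CPM), summed level of Krt8 and Krt18 (middle, CPM) and their share of the counts on the numbered keratins (right, percent) in each library, with axes from 0. Points are libraries and bars are mean and SD of 4. The stratified keratins lie near 0 in Bbs8+/+ and at 39.9 CPM on average in Bbs8-/- libraries, and Krt8 and Krt18 hold most of these counts in both, at 90.7% and 83.0%.

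Among the genes of adhesion and the cell surface, Lad1 and Fxyd3 differed most. Lad1 (ENSMUSG00000041782, chr1:135818598-135833342, plus strand) had 6, 5, 3 and 4 counts in Bbs8+/+ RPE and 66, 111, 61 and 52 counts in Bbs8-/- RPE. Every Bbs8-/- library was far above every Bbs8+/+ library, and Bbs8-/- replicate 2 was the highest. The means were 1.65 ± 0.364 and 27.4 ± 9.08 CPM, a 16.6-fold difference with a log2 fold change of 4.00 (SE 0.388). The Bbs8+/+ level lay close to the floor.

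Fxyd3 (ENSMUSG00000057092, chr7:31068172-31076704, minus strand) had 87, 68, 66 and 79 counts in Bbs8+/+ RPE and 344, 449, 373 and 441 counts in Bbs8-/- RPE. The groups were far apart and each was narrow, at 27.8 ± 1.98 and 151 ± 8.27 CPM. The means differed 5.45-fold, with a log2 fold change of 2.44 (SE 0.140). Lgi4, a gene on the other strand that overlaps Fxyd3, had 18, 1, 13 and 8 counts against 20, 10, 18 and 25.

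Cdh1 (ENSMUSG00000000303, chr8:106603351-106670246, plus strand) had 6, 5, 8 and 8 counts in Bbs8+/+ RPE and 12, 16, 6 and 5 counts in Bbs8-/- RPE. The genotypes overlapped, and Bbs8-/- replicates 1 and 2 were above and replicates 3 and 4 within the range of the Bbs8+/+ counts or at its lower end. The means were 2.53 ± 0.692 and 3.70 ± 1.93 CPM, with a log2 fold change of 0.54 (SE 0.730). Epcam (ENSMUSG00000045394, chr17:87635979-87651129, plus strand) had 0 counts in each Bbs8+/+ library and 0, 1, 0 and 1 counts in Bbs8-/- RPE, below the floor in both genotypes. E-cadherin and Epcam transcripts were thus low or not detectable at this depth in both genotypes.

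The library that stood apart had little weight for the members. Without Bbs8+/+ replicate 1, the log2 fold change was 4.12 for Lad1, 2.47 for Fxyd3, 0.55 for Krt8, 0.21 for Krt18 and 0.45 for Cdh1. Krt5, Krt14 and Krt15 then still had 0, 0 and 1 counts in the remaining Bbs8+/+ libraries.

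The DNA before the start of a gene is shown for Krt5, Lad1 and Epcam, which stand for a member absent from Bbs8+/+ RPE, a member with a low level there and a member below the floor in both genotypes. RefSeq's table for GRCm38.p6 held 8 of the 10 genes, all but Krt15 and Cdh1. The stretches cover the 250 bases before the annotated start, 5′ to 3′ on the strand of the gene, at chr15:101712906-101713155 on the minus strand for Krt5, chr1:135818348-135818597 on the plus strand for Lad1 and chr17:87635729-87635978 on the plus strand for Epcam. Of the other matched genes, Krt12, Krt8, Krt18 and Fxyd3 were not shown because their stretch runs into an annotated exon, and Krt14 because its annotated start lies within the gene model used here. Capitals mark matches to the searched motifs.
Krt5: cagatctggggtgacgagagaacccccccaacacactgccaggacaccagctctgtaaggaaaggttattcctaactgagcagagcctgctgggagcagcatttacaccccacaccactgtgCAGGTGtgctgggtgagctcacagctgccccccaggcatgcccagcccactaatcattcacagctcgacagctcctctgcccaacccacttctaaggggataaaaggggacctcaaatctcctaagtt
Lad1: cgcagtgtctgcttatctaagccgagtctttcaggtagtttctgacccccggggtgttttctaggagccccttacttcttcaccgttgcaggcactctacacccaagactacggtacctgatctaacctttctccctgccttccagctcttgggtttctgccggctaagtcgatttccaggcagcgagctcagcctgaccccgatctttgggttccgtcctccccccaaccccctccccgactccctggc
Epcam: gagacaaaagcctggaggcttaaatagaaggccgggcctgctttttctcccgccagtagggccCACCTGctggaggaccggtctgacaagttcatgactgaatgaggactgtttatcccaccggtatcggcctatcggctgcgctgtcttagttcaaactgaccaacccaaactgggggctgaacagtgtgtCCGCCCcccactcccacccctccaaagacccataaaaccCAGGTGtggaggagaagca
The motifs searched on both strands, with a match on the other strand shown as its reverse complement, were the E-box CACCTG, which Snail and Zeb repressors of epithelial genes bind, the GC box GGGCGG, the TATA box TATAAA, the CCAAT box CCAAT, the AP-1 site TGANTCA and the grainyhead site AACCNGTT. Krt5 held 1 E-box, which starts 128 bases before the gene. Epcam held 2 E-boxes, at 187 and 19 bases, and 1 GC box at 58 bases. Lad1 held none of the 6 motifs. Of 32851 promoters in the table, 17.2% held the E-box, 32.7% the GC box, 12.4% the TATA box, 33.8% the CCAAT box, 6.75% the AP-1 site and 1.79% the grainyhead site. The stretches had a GC content of 56.0% for Krt5, 57.6% for Lad1 and 56.4% for Epcam, against a median of 52.4%. A match is a run of letters, and no binding was measured. No matches overlapped each other in the stretches shown.

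The other keratins gave the context of the member keratins. The files list 49 genes named Krt and a number, 25 on chromosome 11 and 24 on chromosome 15. Of these, 24 had 0 counts in all 8 libraries, 30 had 0 counts in every Bbs8+/+ library, 6 had counts in Bbs8-/- RPE and 0 in every Bbs8+/+ library, and 5 had counts in Bbs8+/+ RPE and 0 in every Bbs8-/- library. Without the members Krt5 and Krt14, 4 genes had counts in Bbs8-/- RPE alone, and the 5 genes with counts in Bbs8+/+ RPE alone had 1 to 7 counts in all. Outside the members, 6 of 43 numbered keratin genes passed the filter. Of these 6, 1 was past the threshold and higher in Bbs8-/- RPE and 0 were lower, against 5.46% and 6.8% of all tested genes. The median log2 fold change of these 6 was 0.52, against 0.02 over all tested genes. Krt4 and Krt19, at 4.03 and 2.61, passed the filter through the Bbs8-/- libraries, which raises this median, so nothing is read from it for the 6 genes. At an unadjusted p under 0.05, 3 were higher and 0 lower, and DESeq2 called 1 higher and 0 lower.

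The keratin past the threshold was Krt4, a type II chain of stratified mucosal epithelia such as the oesophagus. It had 0, 2, 1 and 1 counts in Bbs8+/+ RPE and 25, 9, 19 and 18 counts in Bbs8-/- RPE, with no overlap. Krt4 passed the filter through the Bbs8-/- libraries alone, since its highest Bbs8+/+ library stood at 0.746 CPM, below the floor. Its adjusted p was 7.66e-04 with edgeR, and the Bbs8-/- mean of 6.84 CPM was 6.12-fold higher when 3 counts per library stand in for the Bbs8+/+ level. Krt13, its usual type I partner, did not pass the filter, with 0, 2, 0 and 1 against 5, 0, 10 and 17 counts, so 3 of the 4 Bbs8-/- libraries held more than any Bbs8+/+ library.

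The files also list 4 keratins whose symbol ends in a letter, which the counts above leave out, and they were examined after the values of the other keratins were known. Krt6a, a type II keratin induced in stressed stratified epithelia, had 0 counts in each Bbs8+/+ library and 7, 35, 15 and 24 counts in Bbs8-/- RPE, or 7.45 ± 4.08 CPM. Krt6b had 0 counts in each Bbs8+/+ library and 0, 7, 7 and 16 counts in Bbs8-/- RPE. Krt33a and Krt33b had 0 counts in all 8 libraries. Krt6a and Krt6b closely resemble each other, and reads shared between them were not counted.

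The other keratins of simple epithelia with counts included Krt19 and Krt23. Krt19 had 0, 0, 0 and 6 counts against 15, 10, 7 and 6. Of the Bbs8+/+ libraries only replicate 4 reached 1 CPM, so Krt19 passed the filter through the Bbs8-/- libraries. Its adjusted p was 0.108 with edgeR, and between 0.0918 and 0.244 in the other edgeR fits that kept Bbs8+/+ replicate 4. Without that library, which held all of the Bbs8+/+ counts, the adjusted p with edgeR was 0.00984. Krt19 was then at 0 in Bbs8+/+ RPE by the choice of library, so nothing is read from that value. Krt23 stood at 28.3 ± 4.67 and 39.5 ± 3.92 CPM, with a log2 fold change of 0.48 (adjusted p = 0.131 with edgeR) and no overlap. Krt10, a suprabasal keratin of epidermis, stood at 12.4 ± 4.81 and 11.3 ± 3.65 CPM, with a log2 fold change of -0.14 whose sign changed without Bbs8+/+ replicate 3 (0.12) or Bbs8-/- replicate 4 (0.05). Krt17, a stress-induced basal keratin, had 0 counts in each Bbs8+/+ library and 4, 7, 1 and 0 counts in Bbs8-/- RPE. Krt7 had 3, 0, 0 and 0 against 0, 8, 0 and 0 counts, each from a single library.

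**Figure D3:**
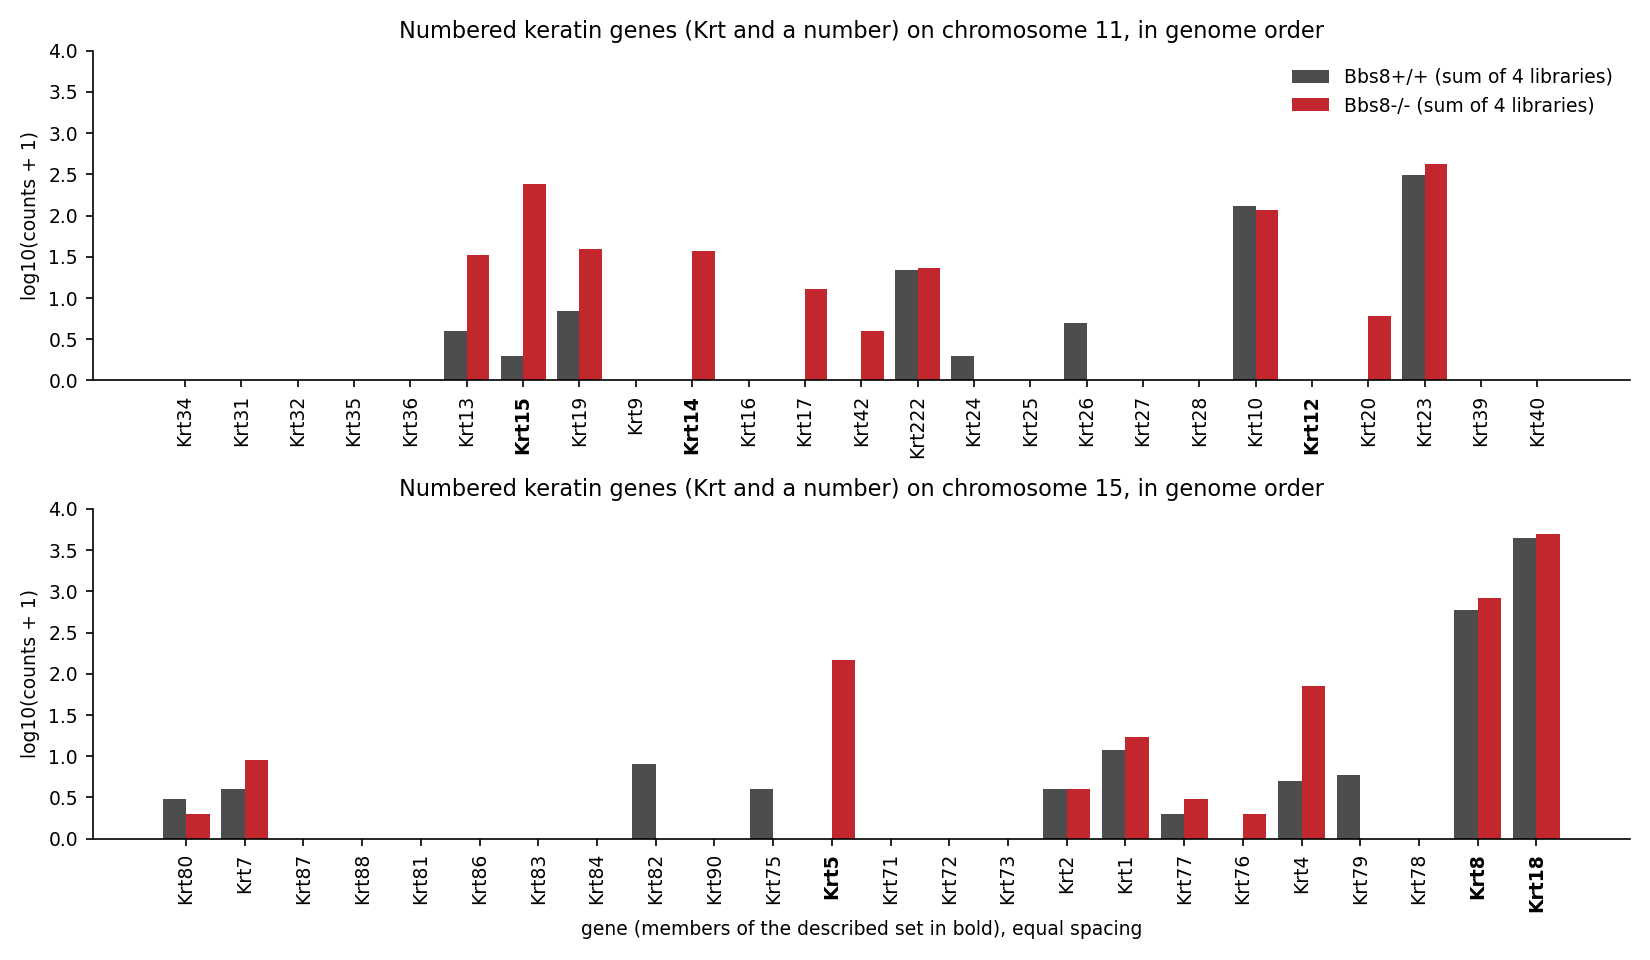
Summed counts of each of the 49 numbered keratin genes over the 4 Bbs8+/+ (grey) and the 4 Bbs8-/- (red) libraries, as log10(counts + 1), for chromosome 11 (top, 25 genes) and chromosome 15 (bottom, 24 genes). The bottom panel follows the order of the genes along the chromosome. The top panel does not, although its title says genome order: the genes from Krt222 to Krt40 lie before Krt34 but are drawn after Krt42. Member genes are in bold. Most genes have no bar, Krt8 and Krt18 have the tallest bars in both genotypes, and Krt15, Krt14 and Krt5 have bars in Bbs8-/- alone or nearly so.

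Genes of desmosomes and hemidesmosomes, to which keratin filaments attach, were read from a list of 23 genes beside the member keratins. Of the 11 that were tested, 2 rose and 0 fell, at a median log2 fold change of 0.32, and 9 did not pass the test. At an unadjusted p under 0.05, 3 were higher and 0 lower, and DESeq2 called 2 higher and 0 lower. Over all tested genes, 5.46% rose and 6.8% fell, with a median of 0.02. Evpl, at 1.74, reached 1 CPM in more Bbs8-/- than Bbs8+/+ libraries, which can raise the list median, so nothing is read from that median. Dsp, which encodes desmoplakin and links keratin to the desmosome, rose from 50.9 ± 16.2 to 76.2 ± 9.35 CPM (log2 fold change 0.57, SE 0.176, adjusted p = 0.0248 with edgeR), with overlapping libraries. This call was lost without Bbs8+/+ replicate 2, 3 or 4 or Bbs8-/- replicate 1 or 3, with adjusted p from edgeR of 0.115, 0.135, 0.0529, 0.0616 and 0.0948. Dst, which encodes the plakin dystonin of the hemidesmosome and of other cytoskeletal links, rose from 116 ± 7.04 to 153 ± 8.71 CPM (0.40, SE 0.112, adjusted p = 0.0118 with edgeR), and lost its call without Bbs8+/+ replicate 2 (adjusted p = 0.0579 with edgeR).

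The most abundant genes of this list that did not pass were Perp, a desmosomal membrane protein, and Cd151, a tetraspanin of the hemidesmosome. Perp stood at 48.7 ± 8.56 and 61.0 ± 8.79 CPM (adjusted p = 0.255 with edgeR) and Cd151 at 50.9 ± 5.20 and 57.4 ± 7.94 CPM (adjusted p = 0.593 with edgeR). The desmosomal genes Pkp1, Dsg1a, Dsg3 and Dsc1 of stratified epithelia and the laminin chain Lamb3 had 0 counts in all 8 libraries. Evpl, which encodes the plakin envoplakin, had 2, 10, 2 and 4 counts in Bbs8+/+ RPE and 23, 10, 15 and 11 in Bbs8-/- RPE (adjusted p = 0.117 with edgeR). Among the genes that did not enter the test, Pkp3 had 0, 0, 1 and 0 counts against 12, 4, 4 and 0, Dsc2 had 0 in each Bbs8+/+ library against 3, 0, 8 and 1, Lama3 had 0 in each Bbs8+/+ library against 0, 4, 1 and 5, and Dsg2 had 0, 2, 1 and 0 against 8, 8, 0 and 0.

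Regulators and junction partners of epithelial cells were read from a list of 30 genes. Of the 14 tested, 4 rose (Cdh3, Spint2, Ctnna1 and Cldn1) and 1 fell (Cd24a), at a median log2 fold change of 0.44, and 9 did not pass. At an unadjusted p under 0.05 with edgeR, 6 were higher and 1 lower, and DESeq2 called 4 higher and 1 lower. Over all tested genes, 5.46% rose and 6.8% fell, with a median of 0.02. Grhl1, at 1.12, reached 1 CPM in more Bbs8-/- than Bbs8+/+ libraries, which can raise the list median, so nothing is read from that median. Cdh3, which encodes P-cadherin, a cadherin of the RPE and of basal epithelial cells, rose from 35.3 ± 8.72 to 109 ± 8.11 CPM with no overlap (log2 fold change 1.63, SE 0.164, adjusted p = 6.66e-10 with edgeR). Cdh1 and Cdh3, both classical cadherins, thus had log2 fold changes of 0.54 (SE 0.730) and 1.63 (SE 0.164), and the difference between them was not tested.

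Spint2, a membrane-bound inhibitor of serine proteases, rose from 21.8 ± 5.78 to 42.8 ± 9.51 CPM (0.97, SE 0.228, adjusted p = 0.00252 with edgeR). Ctnna1, which encodes the α-catenin that joins cadherins to actin, rose from 195 ± 15.8 to 255 ± 11.4 CPM (0.39, SE 0.0963, adjusted p = 0.00462 with edgeR). Cldn1, a claudin of tight junctions, rose from 261 ± 39.8 to 320 ± 28.3 CPM (0.29, SE 0.0999, adjusted p = 0.0487 with edgeR), and its call was lost in 6 of the 8 fits without 1 library, all except those without Bbs8+/+ replicate 4 or Bbs8-/- replicate 1, with adjusted p up to 0.182, and with TMM computed without photoreceptor, lens and erythrocyte genes (0.0511). Cd24a, a surface glycoprotein, fell from 19.6 ± 1.04 to 7.50 ± 2.37 CPM with no overlap (-1.38, SE 0.321, adjusted p = 0.00224 with edgeR).

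Among the abundant genes that did not pass, Ctnnb1, which encodes β-catenin, stood at 342 ± 18.9 and 391 ± 24.9 CPM (adjusted p = 0.158 with edgeR, 0.0232 with library size alone and up to 0.386 over the alternatives). Ctnnd1, which encodes the catenin p120, stood at 37.5 ± 19.7 and 62.3 ± 10.7 CPM (adjusted p = 0.0567 with edgeR). Bbs8+/+ replicate 1 held 25 counts of Ctnnd1, against 126, 126 and 116 in the other Bbs8+/+ libraries. In the fits without 1 library its log2 fold change lay between 0.40 and 0.93. The fits in which Ctnnd1 passed included those without Bbs8+/+ replicate 2 (0.0486) and replicate 3 (0.0237). Its adjusted p ranged from 0.00105 to 0.391 over all alternatives. Transcription factors of epithelia varied in level. Klf5 stood at 22.4 ± 2.89 and 23.8 ± 4.93 CPM (adjusted p = 0.886 with edgeR), and Grhl1 had 8, 2, 1 and 6 counts against 12, 9, 14 and 0 (adjusted p = 0.511 with edgeR). Trp63, which encodes p63 and is required for basal keratinocytes, had 1, 3, 0 and 0 counts in Bbs8+/+ RPE and 0 in each Bbs8-/- library, and Grhl3 and Ovol2 had 0 counts in all 8 libraries.

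Genes of the corneal and conjunctival surface, beside the members, were read from a list of 22 genes. Of the 7 tested, 1 rose and 0 fell, with a median log2 fold change of 0.57. At an unadjusted p under 0.05, 2 were higher and 0 lower, and DESeq2 called 1 higher and 0 lower. Over all tested genes, 5.46% rose and 6.8% fell, with a median of 0.02. Mal and Sfn, at 1.17 and 1.13, reached 1 CPM in more Bbs8-/- than Bbs8+/+ libraries. This can raise the list median, so nothing is read from that median. Upk1b, a tetraspanin of urothelium and of the ocular surface, had 23, 22, 35 and 8 counts in Bbs8+/+ RPE and 78, 85, 111 and 99 in Bbs8-/- RPE. It rose from 8.32 ± 4.65 to 35.4 ± 6.26 CPM (log2 fold change 2.09, SE 0.303, adjusted p = 2.08e-06 with edgeR). Gsta4, a glutathione transferase, stood at 142 ± 19.9 and 174 ± 23.4 CPM (adjusted p = 0.112 with edgeR, 0.0188 without Bbs8+/+ replicate 1 and up to 0.401 over the alternatives), and Aldh3a1, an abundant enzyme of the corneal epithelium, at 12.9 ± 3.85 and 17.3 ± 2.05 CPM (adjusted p = 0.426 with edgeR). Psca, Ly6d, Ivl and Lor had 0 counts in all 8 libraries.

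**Figure D4:**
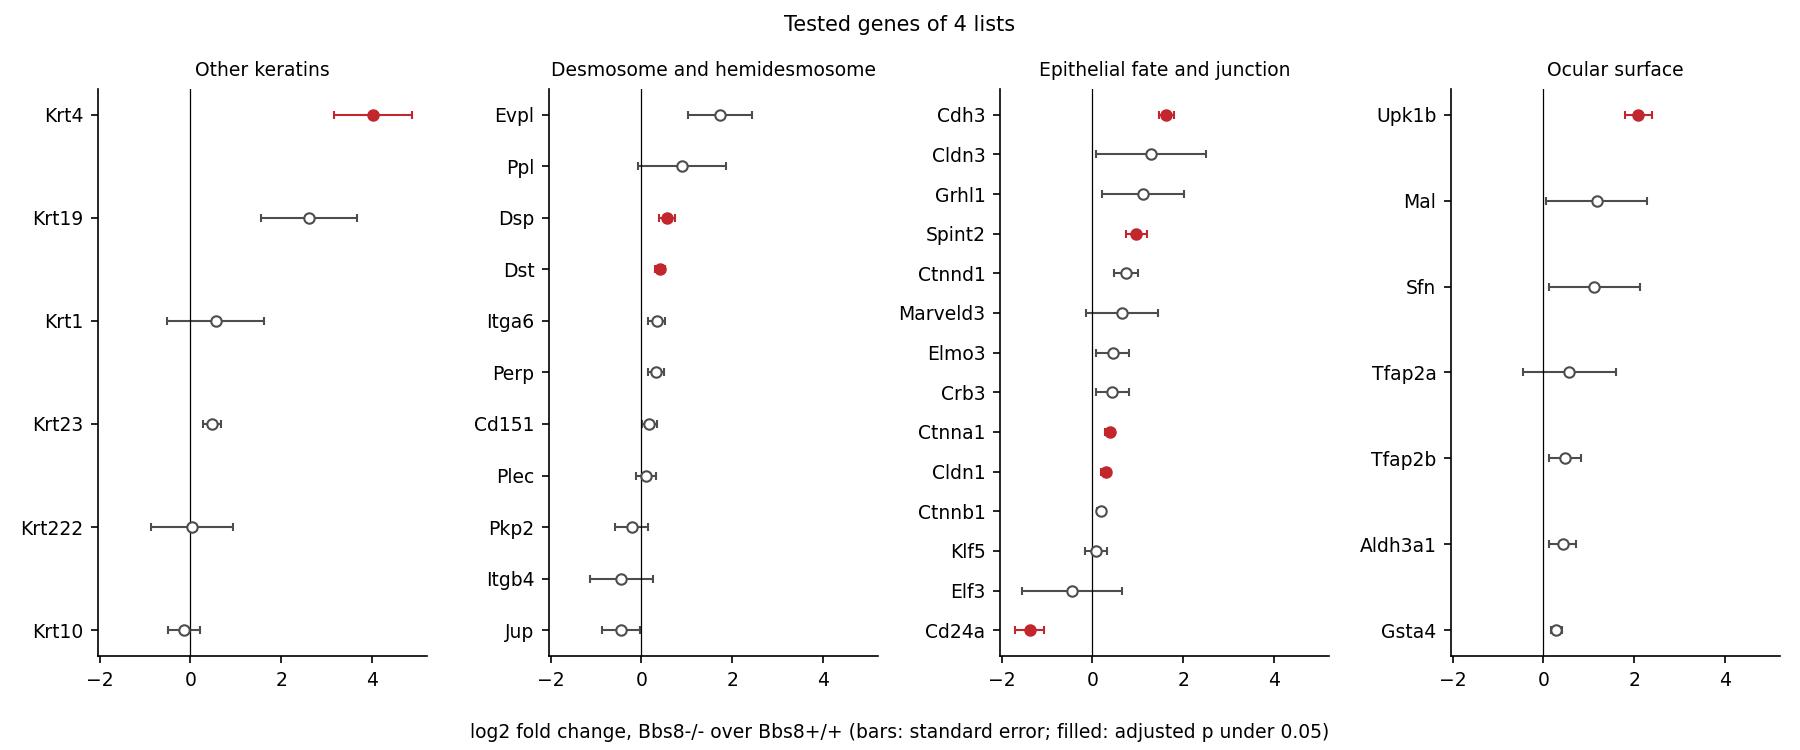
Log2 fold change of Bbs8-/- over Bbs8+/+ RPE (x axis) for the tested genes of the 4 lists, with the member genes left out. Bars are standard errors, and filled red points are past an adjusted p of 0.05. Krt4 (4.03), Upk1b (2.09) and Cdh3 (1.63) lie farthest to the right among the filled points and Cd24a (-1.38) is the filled point to the left of 0.

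Fxyd3 belongs to a family of pump regulators, and values are given here for other regulators and for the β subunits of the sodium pump. Fxyd1, which encodes phospholemman, rose from 64.5 ± 5.98 to 135 ± 12.5 CPM with no overlap (log2 fold change 1.07, SE 0.129, adjusted p = 5.13e-08 with edgeR). The β subunit Atp1b1 rose with no overlap (0.37, SE 0.0684, adjusted p = 1.39e-04 with edgeR), and Atp1b2 rose from 677 ± 45.3 to 825 ± 28.2 CPM (0.29, SE 0.0732, adjusted p = 0.00590 with edgeR). Fxyd6 (0.25, adjusted p = 0.702 with edgeR) and Atp1b3 (0.57, adjusted p = 0.0725 with edgeR) did not pass, and Atp1b3 passed without Bbs8+/+ replicate 4 (0.0357), within a range of 0.0322 to 0.201.

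Markers of cells that the preparation could hold were summed in each library. The dissection discards the cornea, and 10 markers of surface epithelium were examined, of which Krt5, Krt14 and Krt12 are members. Of the other 7, Psca and Ly6d had 0 counts in every library, Trp63 had 4 counts over the Bbs8+/+ libraries and 0 over the Bbs8-/- libraries, Slurp1 had 0 and 3, Aqp5 2 and 0, Sfn 13 and 29, and Aldh3a1 137 and 183. Of these 7, 2 were tested and 0 were past the threshold in edgeR, 0 had an unadjusted p under 0.05, and DESeq2 called 0. Their sum ranged from 11.5 to 19.2 CPM in Bbs8+/+ and from 19.2 to 21.0 CPM in Bbs8-/- libraries, most of it Aldh3a1. These 7 leave out Upk1b of the ocular surface list, which rose, and 5 of them were not tested, so they do not stand for surface epithelium as a whole. Markers of the corneal stroma ranged from 23796 to 26311 CPM and from 25044 to 26555 CPM, of which Ptgds alone made up 23317 to 25892 and 24603 to 26083 CPM. Kera had 1, 3, 1 and 0 counts against 0, 0, 6 and 0, and Lum stood at 7.74 ± 3.49 and 7.82 ± 2.83 CPM. Of the stroma list, 0 of 5 tested genes were past the threshold in edgeR, 1 lower at an unadjusted p under 0.05 and 0 called by DESeq2.

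Other marker lists differed between the genotypes. Beside their counts, 5.46% of all tested genes were past the threshold and higher in Bbs8-/- RPE and 6.8% were lower. The 8 genes of the iris and ciliary body list summed to 86.3 to 116 CPM in Bbs8+/+ and 136 to 179 CPM in Bbs8-/- libraries, with 1 of 6 tested genes higher. Most of the sum was Oca2, at 50.5 and 69.7 CPM on average, and Tgfb2, the gene called, at 27.3 and 62.3 CPM. Tfap2b and Opn4 also had higher means in Bbs8-/- libraries, and Zic1, Wfdc1, Myl9 and Des had lower means. Of the 6 tested, 3 had a positive and 3 a negative log2 fold change, so the sum does not stand for the list. Müller glia markers ranged from 6945 to 7696 CPM and from 8339 to 8793 CPM, with 3 of 8 tested genes higher (Glul, Gfap and Apoe). Most of this sum was Apoe, at 4110 and 4856 CPM on average, and Rlbp1, at 1839 and 1889 CPM. Rlbp1 is also on the RPE list. Glul stood at 1199 and 1709 CPM and Gfap at 1.07 and 5.77 CPM. Of the 8 tested, 7 had a positive and 1 a negative log2 fold change, but the summed CPM does not stand for the list. Lens markers ranged from 3668 to 3904 CPM and from 623 to 699 CPM, with 15 of 15 tested genes lower. Photoreceptor markers ranged from 53064 to 57438 CPM and from 21955 to 22602 CPM, with 12 of 16 tested genes lower and 3 higher. Erythrocyte markers ranged from 5154 to 5718 CPM and from 1985 to 2218 CPM, with 5 of 6 tested genes lower. RPE markers were present in every library, at 34951 to 35969 CPM and 43327 to 46794 CPM, with 1 of 8 tested genes higher and 2 lower. Ttr alone stood at 20173 to 21446 and 29945 to 33222 CPM, and the other 7 RPE markers summed to 14218 to 14964 CPM in Bbs8+/+ and 13355 to 13638 CPM in Bbs8-/- libraries. The part of these other cells in the levels of the keratins and surface genes was not tested.

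The profiles closest to that of the summed stratified keratins were found by the Euclidean distance of the log2(CPM + 1) values, centred per gene, over the 8 libraries. The nearest tested genes were C4b, a complement component (distance 1.14), Serpina3n, a protease inhibitor (1.29), Edn2, which encodes endothelin 2 (1.69), Sulf2, an extracellular sulfatase (1.82), Fgf2os (2.54) and A2m, which encodes α2-macroglobulin (2.55). Edn2 had 0 counts in each Bbs8+/+ library, as did Krt5 and Krt14, and 32, 35, 47 and 56 counts in Bbs8-/- RPE. C4b had 5, 11, 9 and 7 counts in Bbs8+/+ RPE and 440, 529, 481 and 468 in Bbs8-/- RPE. Most of the spread in such a profile lies between the genotypes, and the keratins were chosen with that contrast known. A short distance thus mainly shows a difference of similar size, and shared behaviour within a genotype was not tested. These distances describe 8 libraries of 2 genotypes and nothing beyond them.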

How the data were processed

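RNA of RPE from 4 Bbs8+/+ and 4 Bbs8-/- mice at P29 was analysed from the counts per gene that the authors deposited for each library, listed by Ensembl identifier and not normalized. The authors trimmed the single-end reads of 100 bp with BBDuk, aligned them with STAR to mm10 and counted uniquely mapped reads on Ensembl gene models with htseq-count. Reads that were not unique made up 32.8% to 34.5% of a library, so keratins with near-identical copies can be undercounted, and rows that name no gene were left out. Whether the count used strand is not given in the sources used here. Symbols and coordinates were taken from GENCODE M21 (Ensembl 96, GRCm38), in which 31011 of 31053 identifiers had a name.

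The genotypes were compared with edgeR 4.0.16 under R 4.3.3: TMM scaling, trended dispersions, quasi-likelihood F test, two-sided, with genotype as the only term and Benjamini-Hochberg adjustment over 12889 genes. The common biological coefficient of variation was 0.213. The paper names edgeR and a false discovery rate of 0.05, and its filter on multi-mapping reads was not repeated. Standard errors were derived from each log2 fold change and its F value. The script was tested on simulated data. Libraries were grouped by their labels, and p-values measure the spread between these animals.

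Alternatives were DESeq2 1.42.0, library size alone, TMM without photoreceptor, lens and erythrocyte genes, no filter, replicate numbers in the model and each library left out in turn. Named were Ttc8, the members, up to 6 called genes with the largest change and the 2 most abundant uncalled genes of each list, the 6 nearest profiles, and marker genes. Genes named beyond this, such as Krt6a, Krt6b, Evpl, Klf5, Krt19, Krt13, Krt17, Krt7, Trp63 and genes at 0, were chosen after their values were seen. A few genes under this rule are not reported here. The members and the lists were chosen with earlier results of these data known. Melanocyte markers summed to 3949 to 4352 CPM in Bbs8+/+ and 3925 to 4218 CPM in Bbs8-/- libraries. Most of this was Dct, at 3726 and 3565 CPM on average, so the sum does not stand for the list. Kit stood at 6.41 and 11.9 CPM and Ednrb at 3.79 and 4.66 CPM. Endothelial markers summed to 17.8 to 30.2 and 21.3 to 32.1 CPM, and fibroblast markers to 661 to 963 and 564 to 752 CPM.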

Additional observations from a re-analysis of the deposited data

Results flagged for a closer look

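In 4 groups of 4 libraries, of 74 groups examined among the named genes, 1 library lay far from the other 3, where chance alone gives about 1 in 20 groups. Cd151 was at 45.6 CPM in Bbs8-/- replicate 1, below 60.5 to 62.7 CPM in the other Bbs8-/- libraries. Spint2 was at 13.2 CPM in Bbs8+/+ replicate 1, below 23.8 to 25.4 CPM. Vim, which encodes the intermediate filament vimentin, was at 80.2 CPM in Bbs8+/+ replicate 1, below 123 to 127 CPM. Gsta4 was at 208 CPM in Bbs8-/- replicate 3, above 159 to 166 CPM. Of the 10 members, 0 were among these.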

How the results depend on the processing

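The members past the threshold numbered 6 with edgeR, 7 with library size alone, where Krt18 joined them, and 5 with DESeq2, which gave Krt14 no adjusted p, and 5 to 6 when 1 library was left out. With library size alone, which moved the median log2 fold change of all genes from 0.02 to 0.11, 1005 genes were higher and 657 lower, against 704 and 877. The ocular surface list then had 2 genes higher instead of 1. With each library left out, the count of higher genes was 1 to 2 for the other keratins, 0 to 2 for desmosomes and hemidesmosomes, 3 to 5 for epithelial fate and junctions and 1 to 2 for the ocular surface. The count of 2 for the other keratins came without Bbs8+/+ replicate 4, which held all of the Bbs8+/+ counts of Krt19. The Krt10 log2 fold change of -0.14 lay between -0.34 and 0.12 without 1 library, and became 0.12 without Bbs8+/+ replicate 3 and 0.05 without Bbs8-/- replicate 4. The cause was not tested. Same-numbered libraries did not deviate together (correlations of -0.032, -0.017, 0.0051 and 0.0067), and neither did libraries with unlike numbers (-0.018 to 0.032). No label says whether a number marks a shared litter, and correlations this near 0 do not decide it. With the replicate block 650 genes were higher and 827 lower, 6 members, 1 other keratin, 2 desmosomal and 1 ocular surface gene were higher, and epithelial genes numbered 5 higher and 1 lower. Over all named genes and alternatives, 462 values kept their direction and side of the threshold or their size, 25 lost and 11 gained a call, 2 changed sign and 7 fitted values of Krt5, Krt14 and Krt15 moved. Genes under about 3 counts in a library are beyond the depth of these libraries.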

Other observations

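Intermediate filament genes other than keratins were read from a list of 16 genes. Of these, 13 were tested, 2 rose and 4 fell, with a median log2 fold change of -0.54. Over all tested genes, 5.46% rose and 6.8% fell, with a median of 0.02. Bfsp1 and Bfsp2, which encode the beaded filament proteins of the lens, fell by 2.83 and 1.67 on the log2 scale (adjusted p = 6.80e-10 and 4.63e-04 with edgeR), while the summed lens markers, a list that holds both, were 3668 to 3904 CPM in Bbs8+/+ and 623 to 699 CPM in Bbs8-/- libraries. Synm, which encodes synemin, fell from 34.1 ± 8.76 to 15.9 ± 5.24 CPM (adjusted p = 0.0030 with edgeR). Lmnb1, which encodes lamin B1 of the nuclear envelope, fell from 42.5 ± 7.32 to 25.3 ± 3.57 CPM (adjusted p = 0.0118 with edgeR). Gfap, the filament of reactive glia, rose from 1.07 ± 1.12 to 5.77 ± 2.19 CPM (adjusted p = 0.0417 with edgeR), and Nefm, a neurofilament chain, from 2.14 ± 0.833 to 7.64 ± 4.89 CPM (adjusted p = 0.0401 with edgeR). Both calls were lost with the replicate numbers in the model (adjusted p = 0.0709 and 0.0800), the Gfap call without Bbs8+/+ replicate 1, 2 or 4 or Bbs8-/- replicate 1 or 2 (up to 0.136), and the Nefm call without Bbs8+/+ replicate 1, 2 or 3 or Bbs8-/- replicate 3 or 4 (up to 0.254). Vim, typical of mesenchymal cells and also made by the RPE and by Müller glia, stood at 114 ± 22.8 and 100.5 ± 22.8 CPM (adjusted p = 0.520 with edgeR), and Lmna at 25.9 ± 5.29 and 36.2 ± 8.14 CPM (adjusted p = 0.174 with edgeR).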
